A study of Mus musculus with 17 samples.

Results

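The 39 genes described here encode enzymes and transport proteins of mitochondrial fatty acid oxidation and of the citrate cycle, in the gastrocnemius, a large calf muscle. They were chosen by gene symbol as enzymes and carriers known for these pathways, 24 for the uptake, activation and oxidation of fatty acids and 15 for the citrate cycle and malate metabolism. All 39 were found among 45777 genes in the file, each under a single row, and all 39 passed the filter on low counts that left 16731 genes for testing. RNA was sequenced from 17 individual male C57BL/6J mice. The ALL mice (n = 4) entered the study at 48 weeks of age, were 61 weeks old when sampled, and ate AIN-93G diet with 3% allulose, a rare sugar, in place of cellulose for 12 weeks. The Middle-aged mice (n = 6) had the same ages and received AIN-93G without allulose. The Mature mice (n = 7) entered at 8 weeks and were sampled at 21 weeks, on AIN-93G without allulose. The sample labels give these starting ages as 8 weeks and 12 months. All groups were of 1 strain and 1 sex, and the bulk tissue held fibres of every type together with vessels and other cells, so that fewer cells of a type and less RNA per cell cannot be told apart.

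Fatty acids that enter a muscle fibre are bound by a cytosolic carrier, activated to acyl-CoA and passed into mitochondria by the carnitine shuttle. Inside, each turn of the oxidation spiral removes a short unit as acetyl-CoA and hands electrons to the electron transfer flavoprotein and to NADH. Acetyl-CoA from fat and from pyruvate is then oxidised in the citrate cycle. In skeletal muscle both pathways are known to be richer in slow and fast oxidative fibres than in fast glycolytic fibres.

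Libraries held 49774656 to 72640511 counts, of which the 39 genes took 0.83% to 1.26%. Muscle identity was plain in every library: Ckm, the muscle creatine kinase, had 1002961 or more counts in each. A protocol field of the labels names adipose tissue and liver, but Alb, the albumin gene of liver, had 0 to 4 counts in ALL, 0 to 27 counts in Middle-aged libraries and 0 to 28 counts in Mature libraries. Of 9 liver markers 2 passed the filter and 4 were at 0 in every library. The 13 genes of the mitochondrial genome took 16.5% to 21.5% of the counts in ALL, 14.97% to 23.2% in Middle-aged mice, with 15.4% to 22.1% in Mature mice, and this share is used below.

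Acot2 (gene ID 171210, chr12:83987861-83993877, build GRCm38), a mitochondrial acyl-CoA thioesterase that splits long-chain acyl-CoA into free fatty acid and CoA, was the only one of the 39 genes that passed the test for age. Its neighbour Acot1, at chr12:84009502-84017670 and not among the 39, encodes a near-identical cytosolic thioesterase. Aligned end to end, their coding sequences were identical at 95.6% of the aligned bases, with 144 gap bases left out. Of the 1285 stretches of 75 bases, the length of a read, in the coding sequence of Acot2, 33.8% also occurred in Acot1, and reads from such stretches could be credited to either gene. The first pair below, from exon 2, is shown as an example that no single read could assign, at chr12:83990494-83990568 for Acot2 and chr12:84014379-84014453 for Acot1, both on the plus strand (GENCODE M21 transcripts, GRCm38). The second pair is the 75-base stretch with most differences among the 457 coding bases of exon 1 compared without gaps. A further 123 coding bases of Acot2 precede the start of the Acot1 coding sequence and were outside this comparison. The second pair lies at chr12:83988025-83988099 and chr12:84009510-84009584, with capitals at the 10 of 75 positions that differ.
Acot2 exon 2: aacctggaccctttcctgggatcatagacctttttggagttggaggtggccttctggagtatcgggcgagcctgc
Acot1 exon 2: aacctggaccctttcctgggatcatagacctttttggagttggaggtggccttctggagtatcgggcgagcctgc
Acot2 exon 1: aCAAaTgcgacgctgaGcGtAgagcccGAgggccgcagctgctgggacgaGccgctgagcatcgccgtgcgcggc
Acot1 exon 1: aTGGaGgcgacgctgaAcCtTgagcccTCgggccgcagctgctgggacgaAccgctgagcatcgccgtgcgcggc

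The same count of shared stretches over whole transcripts showed how far each measurement belongs to its own gene. Of the 39 genes, 28 shared no stretch of 75 bases with another annotated gene and 7 shared more than 5% of theirs. These were Cpt1b (92.1%, with Gm44502), Etfb (66.3%, with Gm45233), Hadhb (57.2%, with Gm13910), Fabp3 (24.3%, with Fabp3-ps1), Acot2 (21.2%, chiefly with Acot1), Me1 (18.9%, chiefly with Gm7049) and Suclg2 (16%, with Gm15163). Values of these 7 genes may hold or lack reads of the partner and are less certain than those of the other 32.

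Promoters are printed for 3 genes to show the sequence from which measured transcripts start, each running from 250 bases before to 50 bases after the start (RefSeq, GRCm38.p6). Of the 39 genes, 35 had such an entry. Hadha and Hadhb, the subunit genes of the trifunctional protein, lie head to head, and their windows on chromosome 5 share 228 bases. The Hadhb window (chr5:30155003-30155302, plus strand) has the 4 GC boxes in capitals (GGGCGG, read on either strand). The Etfdh window (chr3:79628718-79629017, minus strand) has in capitals the NRF1 motif (GCGCA, any base, GCGC), and the Acot2 window (chr12:83987611-83987910, plus strand) has in capitals a CCAAT box, here on the other strand.
Hadhb: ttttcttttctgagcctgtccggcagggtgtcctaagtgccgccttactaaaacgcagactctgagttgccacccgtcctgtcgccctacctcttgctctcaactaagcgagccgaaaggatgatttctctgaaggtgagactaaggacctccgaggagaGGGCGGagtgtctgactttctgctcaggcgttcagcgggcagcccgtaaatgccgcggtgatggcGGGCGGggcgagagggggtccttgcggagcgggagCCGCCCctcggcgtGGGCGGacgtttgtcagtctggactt
Etfdh: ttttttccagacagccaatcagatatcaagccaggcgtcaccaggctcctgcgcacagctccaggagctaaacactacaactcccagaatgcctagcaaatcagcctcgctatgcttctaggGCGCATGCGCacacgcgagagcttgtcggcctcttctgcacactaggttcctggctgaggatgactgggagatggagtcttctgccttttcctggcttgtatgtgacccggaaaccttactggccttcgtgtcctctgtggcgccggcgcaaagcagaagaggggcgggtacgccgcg
Acot2: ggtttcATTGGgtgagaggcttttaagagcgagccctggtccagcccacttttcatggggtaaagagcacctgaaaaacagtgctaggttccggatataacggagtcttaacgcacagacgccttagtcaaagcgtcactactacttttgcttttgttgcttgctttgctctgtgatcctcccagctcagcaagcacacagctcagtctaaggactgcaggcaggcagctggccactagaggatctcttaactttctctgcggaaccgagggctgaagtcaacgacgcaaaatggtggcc
On both strands, GGGCGG was found for 24 of the 35 genes and in 35.7% of all 32851 promoters of this length. CCAAT was found for 19 genes and in 37.4%, and the NRF1 motif for 4 genes (Dld, Etfb, Etfdh and Sucla2) and in 4.6%. The first counts are of genes and the percentages of promoters. The shorter receptor half-site AAGGTCA occurred in the windows of Acadm and Ogdh and in 4.72% of all promoters. TCAAGGTCA, which contains it, and AGGTCA repeated after 1 spacer base, occurred in none of the 35 and in 0.423% and 0.0396% of all promoters.

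Levels can be ranked between genes only per unit of length, so the deposited TPM values (transcript counts scaled for gene length and library depth) were used for that. Fabp3, the heart and muscle fatty acid binding protein, stood highest with 1299.9 ± 394 TPM in ALL, 1382 ± 667 TPM in Middle-aged and 1233 ± 449.7 TPM in Mature mice (SD, n = 4, 6 and 7). Mdh2, the mitochondrial malate dehydrogenase, came next with 754 ± 37.7 TPM in ALL, 748 ± 55.1 TPM in Middle-aged and 735 ± 47.99 TPM in Mature mice. Cpt1a, the liver form of carnitine palmitoyltransferase 1, was lowest in every group with 3.95 ± 0.797 TPM in ALL, 4.87 ± 1.02 TPM in Middle-aged and 5.07 ± 0.413 TPM in Mature mice, while the muscle form Cpt1b had 178 ± 26.1 TPM in ALL, 178 ± 17.9 TPM in Middle-aged and 190.0 ± 19.0 TPM in Mature mice. In Mature mice 36 of the 38 steps between neighbours in the order had overlapping ranges of TPM, so the order is firm only at the step below Mdh2 and the step above Cpt1a. In ALL mice 38 of the 39 genes stood within 4 ranks of their place in Mature mice, the exception being Cd36 at rank 21 in ALL and rank 13 in Mature.

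The comparison of Middle-aged with Mature mice asked what age changed on the same diet. Acot2 was lower in Middle-aged mice, and none of the 39 genes was higher. This is 1 gene of 39, against 10.3% of all genes tested called in either direction and 5.54% called lower. The median difference of the 39 genes (logFC, a log2 ratio of Middle-aged over Mature) was −0.01, against 0.01 over all genes tested, with 20 genes below 0 and 19 above. The 95% interval of the difference lay within 0.5 log2 units of 0 for 32 of the 39 genes and within 0.25 for 11, so for these a larger change than that is outside the interval, while for the rest it is not. The interval was widest for Fabp3, from −0.46 to 0.87. DESeq2 also called 1 of the 39 genes.

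The comparison of ALL with Middle-aged mice asked what allulose changed at 1 age. No gene of the 39 passed the test by edgeR's quasi-likelihood test with Benjamini-Hochberg adjustment, against 0% of all 16731 genes, and DESeq2 called 0 of the 39. At an unadjusted p under 0.05 there was 1 of the 39, Cpt1a, and 603 of all genes. The median logFC was 7e-04 for the 39 genes and −0.0047 for all genes tested, and the interval lay within 0.5 log2 units of 0 for 31 of the 39.

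ALL mice set against Mature mice differ in both age and diet, and this comparison shares its Mature mice with the first and its ALL mice with the second. Again 0 of the 39 genes passed edgeR's test, against 6.5% of all genes, while DESeq2 called 1 (Acot2). At an unadjusted p under 0.05 there were 3, namely Acot2, Cpt1a and Eci2, all lower in ALL mice, and 3800 of all 16731 genes. The interval lay within 0.5 log2 units of 0 for 29 of the 39 genes.

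**Figure D1:**
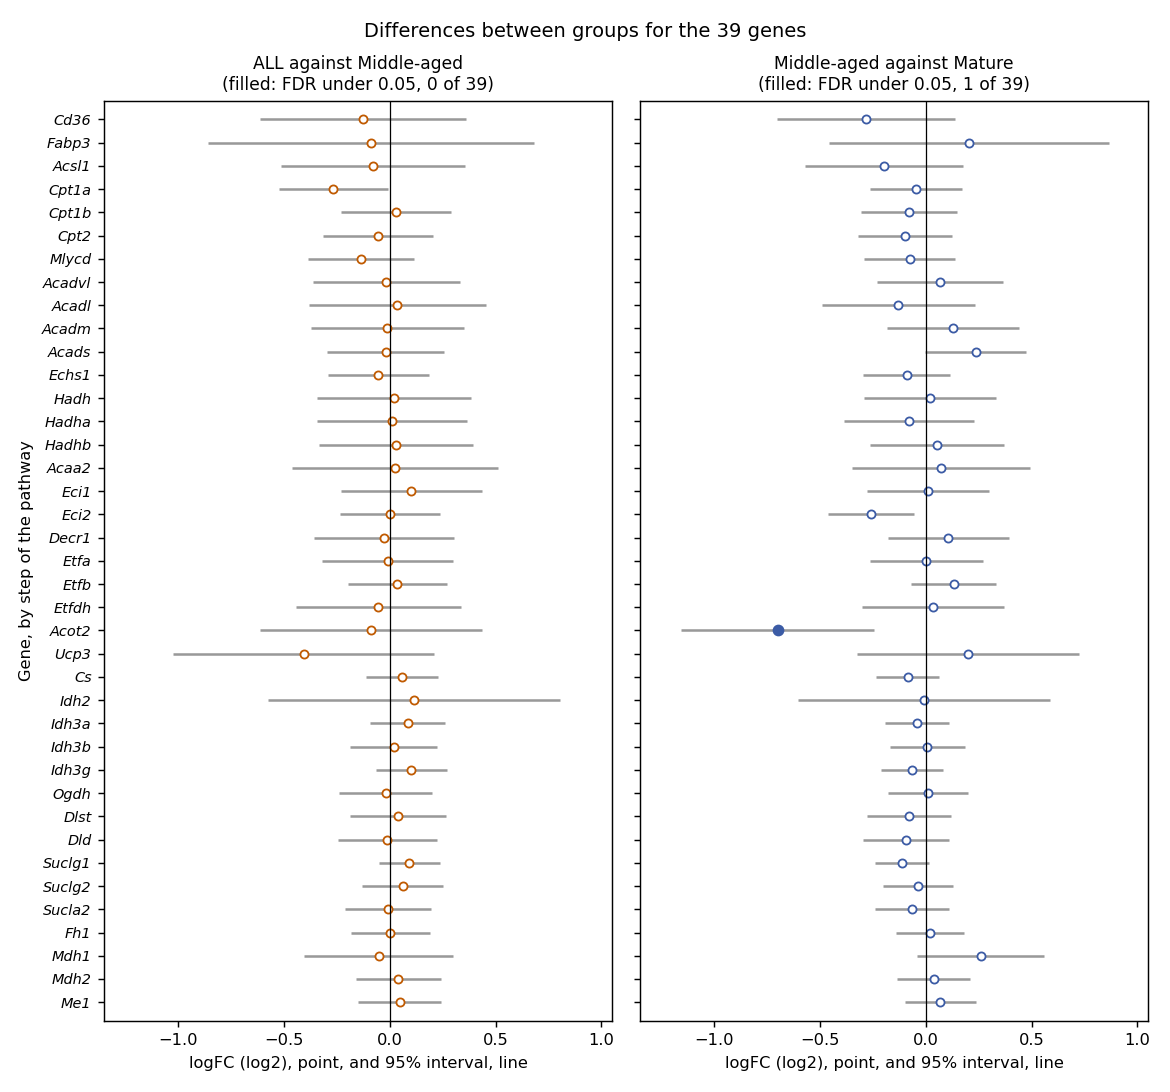
Difference between groups (logFC, log2) for each of the 39 genes, with ALL against Middle-aged on the left and Middle-aged against Mature on the right. Points are estimates from 1 fit over 17 mice, lines are 95% intervals, and a filled point has an FDR under 0.05. Acot2 at −0.70 on the right is the 1 filled point.

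At the first step, Cd36, the membrane protein through which long-chain fatty acids enter fibres and capillary cells, had 459.9, 214, 300.3 and 269 CPM (counts scaled to library size and TMM factor) in ALL mice 1 to 4. Middle-aged mice had 220.1 to 478 CPM (median 357) and Mature mice 282 to 543 CPM (median 406). The ranges overlapped in all 3 groups, and the highest mouse of each was ALL 1, Middle-aged 1 and Mature 3. The logFC was −0.28 ± 0.20 (SE) for Middle-aged against Mature, with an adjusted p of 0.42, and −0.13 ± 0.23 for ALL against Middle-aged, with an adjusted p of 1 (edgeR). Without ALL replicate 1 the second was −0.38.

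Markers of endothelial cells, which also use Cd36, differed between Middle-aged and Mature mice, although Cd36 itself did not pass. Of 15 endothelial markers, all above the filter, 9 passed the test as lower in Middle-aged against Mature mice, against 5.54% of all genes. In ALL against Mature mice 9 passed as lower, against 532 of all 16731 genes. Their summed level was 474 to 519.8 CPM in ALL, 421 to 589 CPM in Middle-aged mice, and 603 to 730.3 CPM in Mature mice, so that the Mature mice lay above all the others. Of 12 adipocyte markers 10 passed the filter and 1 was at 0 in every library. None of them passed the test in Middle-aged against Mature and 3 were lower in ALL against Mature. For ALL against Middle-aged 0 passed, with 9 below 0 and 1 above and a median logFC of −1.95. At an unadjusted p under 0.05 (edgeR) there were 7 of the 10 in that comparison, and 603 of all 16731 genes. The sum of the adipocyte markers was 136 to 176 CPM in ALL, 152 to 366 CPM in Middle-aged mice, and 217 to 350.2 CPM in Mature mice. Fabp4 stands on both the adipocyte and the endothelial list, so the sums of these lists are not separate measures. The part of either cell type in the level of Cd36 was not tested.

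Fabp3, which carries fatty acids in the cytosol, had 763, 478, 530.4 and 358 CPM in ALL mice 1 to 4, 211 to 1005 CPM (median 495) in Middle-aged mice and 249.6 to 739 CPM (median 447) in Mature mice. It varied more between mice of 1 group than any other of the 39 genes, with a within-group SD of 0.67 on the log2 scale, and no group stood apart. Its logFC was 0.20 ± 0.32 with age (Middle-aged against Mature) and −0.09 ± 0.37 with allulose (ALL against Middle-aged).

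Activation and the carnitine shuttle were represented by 5 genes, none of which passed the test in any comparison. Acsl1, the main long-chain acyl-CoA synthetase of muscle, had 382, 222, 298 and 266 CPM in ALL mice 1 to 4, 223 to 406 CPM (median 293) in Middle-aged mice and 253 to 468 CPM (median 309.9) in Mature mice. The ranges overlapped, and the logFC was −0.20 ± 0.18 with age (Middle-aged against Mature) and −0.08 ± 0.21 with allulose (ALL against Middle-aged). Cpt1a had 11.3, 7.12, 11.9 and 11.1 CPM in ALL mice 1 to 4, 11.1 to 15.7 CPM (median 12.0) in Middle-aged mice and 11.5 to 14.3 CPM (median 12.7) in Mature mice. ALL mouse 2 was the lowest of the 17, and the other 3 ALL mice lay within the Middle-aged range or at its lower edge. For ALL against Middle-aged its logFC was −0.27 ± 0.12, with an unadjusted p of 0.0426 and an adjusted p of 1 (edgeR), and −0.12 without ALL replicate 2. The other genes of this step were Cpt1b and Cpt2, the muscle outer and the inner membrane carnitine palmitoyltransferases, and Mlycd, which degrades malonyl-CoA, the inhibitor of the shuttle. All 5 genes had a logFC below 0 for Middle-aged against Mature, between −0.20 and −0.05.

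In the oxidation spiral itself, the 4 acyl-CoA dehydrogenases each act on a range of chain lengths. Acadm, for medium chains, had 394, 308, 337 and 302 CPM in ALL mice 1 to 4, 238 to 456 CPM (median 337) in Middle-aged mice and 247 to 383 CPM (median 296) in Mature mice. Acads, for short chains, had 78.9, 69.97, 72.6 and 65.7 CPM in ALL mice 1 to 4, 58.2 to 85.4 CPM (median 74.0) in Middle-aged mice and 49.1 to 75.1 CPM (median 56.5) in Mature mice. Both overlapped between groups, and in Mature mice 1, 2 and 3 Acads was above 70 CPM while the other 4 Mature mice were below 57 CPM. The logFC of Acads for Middle-aged against Mature was 0.24 ± 0.11, with an adjusted p of 0.213 (edgeR). Together with Acadvl and Acadl, for very long and long chains, the 4 genes ran between −0.13 and 0.24 in this comparison, and 0 of 4 passed.

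Of the 5 genes of the later steps (Echs1, Hadh, Hadha, Hadhb and Acaa2) 0 passed in any comparison. Hadhb, the thiolase subunit of the trifunctional protein, had 547, 423, 453 and 393 CPM in ALL mice 1 to 4, 326 to 577 CPM (median 429) in Middle-aged mice and 329.6 to 537 CPM (median 382) in Mature mice. The groups overlapped almost wholly. The logFC was 0.05 ± 0.15 with age (Middle-aged against Mature) and 0.03 ± 0.17 with allulose (ALL against Middle-aged), and 57.2% of the 75-base stretches of Hadhb are shared as given above.

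Unsaturated chains need extra enzymes. Eci2, an enoyl-CoA isomerase of peroxisomes and mitochondria, had 65.2, 48.4, 67.2 and 63.4 CPM in ALL mice 1 to 4, 49.2 to 74.99 CPM (median 61.6) in Middle-aged mice and 66.1 to 85.5 CPM (median 70.3) in Mature mice. Only Middle-aged mice 1 and 4 and ALL mouse 3 reached the Mature range. The logFC was −0.26 ± 0.10 for Middle-aged against Mature, with an unadjusted p of 0.0152 and an adjusted p of 0.0977 (edgeR), and 0.00 ± 0.11 for ALL against Middle-aged. Without Middle-aged replicate 1 the adjusted p for age was 0.0318. Decr1, the dienoyl-CoA reductase of mitochondria, had 153, 116, 123 and 115 CPM in ALL mice 1 to 4, 96.5 to 167 CPM (median 127) in Middle-aged mice and 95.8 to 146 CPM (median 111) in Mature mice, with full overlap. The third gene, Eci1, the mitochondrial isomerase, had a logFC of 0.01 ± 0.14 for Middle-aged against Mature.

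Electrons from the dehydrogenases pass through the flavoprotein of Etfa and Etfb to the ubiquinone oxidoreductase Etfdh. Etfb had 133, 125, 129 and 112 CPM in ALL mice 1 to 4, 96.9 to 145 CPM (median 118) in Middle-aged mice and 97.8 to 131 CPM (median 111) in Mature mice. Etfdh had 205, 147, 177 and 150.2 CPM in ALL mice 1 to 4, 122 to 242 CPM (median 176) in Middle-aged mice and 124 to 215 CPM (median 162) in Mature mice. In both genes the groups overlapped, and the logFC of the 3 genes lay between 0.00 and 0.13 for Middle-aged against Mature.

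Acot2, introduced above, had 47.4, 16.9, 33.9 and 34.5 CPM in ALL mice 1 to 4, 22.3 to 44.3 CPM (median 37.6) in Middle-aged mice and 38.2 to 80.4 CPM (median 59.1) in Mature mice. All Mature mice except mouse 4 lay above every Middle-aged mouse. Acot2 was lower in Middle-aged than in Mature mice with a logFC of −0.70 ± 0.22 and an adjusted p of 0.0466 (edgeR), at 35.3 ± 9.23 CPM in Middle-aged and 57.3 ± 15.1 CPM in Mature mice (SD, n = 6 and 7). The call was narrow. It was lost without Mature replicate 2, 3, 5 or 6, Middle-aged replicate 1, 2, 3 or 6, or ALL replicate 3 or 4, with adjusted p of 0.053 to 0.102 (edgeR). The ALL mice are in neither group compared, but they enter the estimate of spread, the scaling and the set of genes tested. The logFC stayed between −0.79 and −0.60 over the 17 libraries left out in turn. For ALL against Mature the logFC was −0.79 ± 0.25 (adjusted p = 0.0647, edgeR), and for ALL against Middle-aged −0.09 ± 0.25, with an interval from −0.61 to 0.44. Acot1 had 8.79, 1.96, 5.38 and 4.70 CPM in ALL mice 1 to 4, 2.52 to 8.21 CPM in Middle-aged mice and 6.56 to 18.7 CPM in Mature mice, and was lower in Middle-aged than in Mature mice with a logFC of −1.08 ± 0.32 and an adjusted p of 0.0358 (edgeR). The ratio of Acot1 to Acot2 spanned 0.172 to 0.232 across Mature, 0.113 to 0.186 across Middle-aged and 0.116 to 0.186 across ALL libraries. The paper describes paired reads of 75 bases, and how shared reads were counted is not settled. Whether reads were exchanged between the 2 genes was not tested. Since they may have been, the differences of Acot1 and Acot2 cannot be taken as independent measurements.

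Ucp3, the mitochondrial carrier known as uncoupling protein 3 and expressed in muscle when fatty acids are plentiful, had 244, 87.7, 333 and 459 CPM in ALL mice 1 to 4, 277 to 507 CPM (median 330.4) in Middle-aged mice and 248 to 384 CPM (median 332) in Mature mice. The 4 ALL mice spanned a wider range than the 13 others, and mouse 2 lay below every other mouse. For ALL against Middle-aged the logFC was −0.41 ± 0.29 (adjusted p = 1, edgeR), −0.11 without ALL replicate 2 and −0.75 without ALL replicate 4. The same ALL mouse 2 was also the lowest of the 17 in Cd36, Acsl1, Cpt1a, Mlycd, Eci2 and Acot2, but not in Fabp3, Acadm or any named citrate cycle gene.

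**Figure D2:**
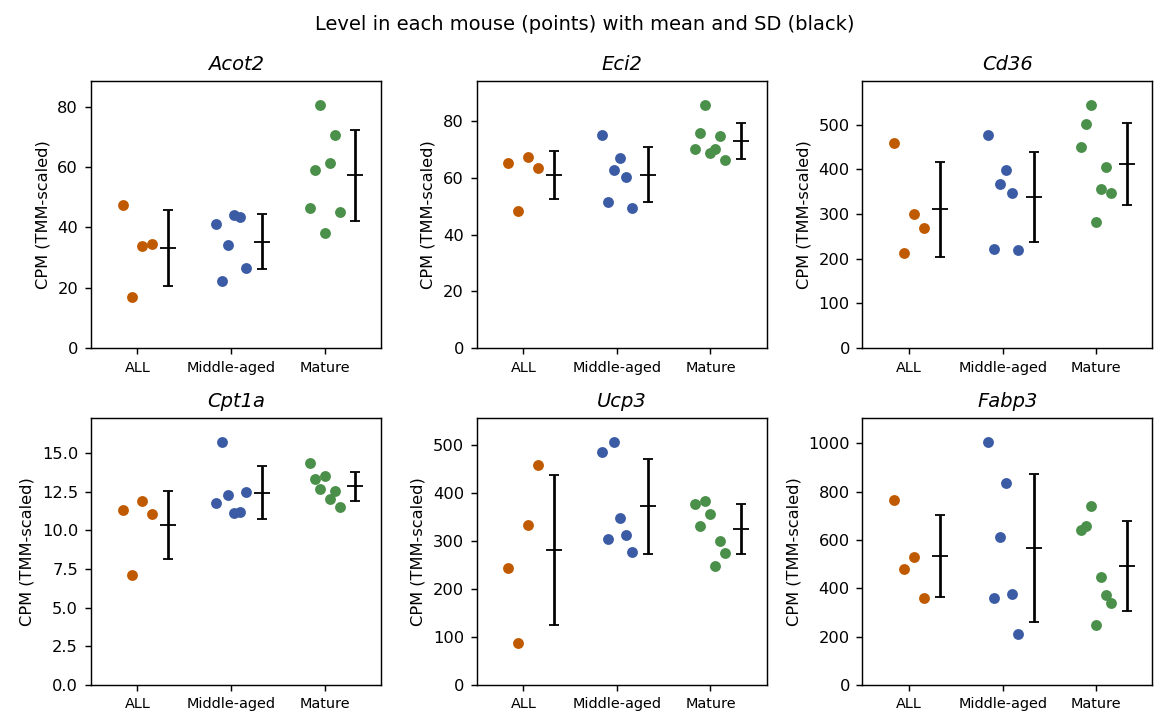
Level in each mouse (CPM, scaled by TMM; points) of Acot2, Eci2, Cd36, Cpt1a, Ucp3 and Fabp3 in ALL (n = 4), Middle-aged (n = 6) and Mature (n = 7) mice, with mean and SD in black and axes from 0. Acot2 is lower in Middle-aged than in Mature mice, and 1 ALL mouse is low in Ucp3 (87.7 CPM) and Cpt1a (7.12 CPM).

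Of the 15 genes of the citrate cycle and malate metabolism, 0 passed the test in any comparison. Cs, citrate synthase, the entry enzyme, had 814, 728, 723 and 735 CPM in ALL mice 1 to 4, 627 to 803 CPM (median 735) in Middle-aged mice and 684 to 841 CPM (median 784) in Mature mice. Its logFC was −0.09 ± 0.07 for Middle-aged against Mature, with an interval from −0.23 to 0.06, and 0.06 ± 0.08 for ALL against Middle-aged. Idh3g, a regulatory subunit of the NAD-dependent isocitrate dehydrogenase, had 275, 307, 271 and 259.7 CPM in ALL mice 1 to 4, 228 to 284 CPM (median 262) in Middle-aged mice and 249 to 305 CPM (median 268) in Mature mice. Of the isocitrate dehydrogenases, Idh2, the NADP-dependent mitochondrial form, differed most between mice, from 87.1 CPM in Middle-aged mouse 6 to 341 CPM in Middle-aged mouse 4, within a single group. Its logFC was −0.01 ± 0.28 for Middle-aged against Mature.

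Ogdh, the first subunit of the oxoglutarate dehydrogenase complex, had 737, 584, 671 and 638 CPM in ALL mice 1 to 4, 551 to 773 CPM (median 679) in Middle-aged mice and 579.7 to 748 CPM (median 666) in Mature mice. Dlst and Dld encode the other subunits. Suclg1, the subunit shared by both succinyl-CoA ligases, was the steadiest of the 39 genes, with a within-group SD of 0.10 on the log2 scale, at 241, 249, 223 and 232 CPM in ALL mice 1 to 4, 198 to 244 CPM (median 222) in Middle-aged mice and 214 to 255 CPM (median 242) in Mature mice. Its logFC was −0.11 ± 0.06 for Middle-aged against Mature, with an adjusted p of 0.26 (edgeR). Sucla2, the subunit of the ADP-forming ligase, had 475, 449, 435 and 442 CPM in ALL mice 1 to 4, 359 to 547 CPM (median 452) in Middle-aged mice and 443 to 533 CPM (median 478) in Mature mice. The groups overlapped in all 3 genes.

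Mdh1, the cytosolic malate dehydrogenase of the malate-aspartate shuttle, had 568, 543, 476 and 415 CPM in ALL mice 1 to 4, 364 to 665 CPM (median 503) in Middle-aged mice and 339 to 532 CPM (median 416) in Mature mice. Its logFC for Middle-aged against Mature was 0.26 ± 0.14, the highest of the 39 genes, with an adjusted p of 0.286 (edgeR). Mdh2 had 605, 608, 561 and 549.6 CPM in ALL mice 1 to 4, 459.9 to 662 CPM (median 559) in Middle-aged mice and 481 to 603 CPM (median 562) in Mature mice. Both enzymes overlapped between groups. Fh1, fumarase, and Me1, the cytosolic malic enzyme that makes NADPH from malate, had logFC of 0.02 ± 0.08 and 0.07 ± 0.08 for Middle-aged against Mature.

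Although the group means hardly differed, mice of the same group did. The within-group SD of log2 CPM had a median of 0.29 over the 24 fatty acid genes and 0.15 over the 15 citrate cycle genes, against 0.18 over all 16731 genes tested and 0.13 over the 6435 of them with a mean level at or above the lowest of the 39. The citrate cycle genes thus lay between these 2 values and the fatty acid genes above both. Added up, the 39 genes had 11931, 9796, 10387 and 9774 CPM in ALL mice 1 to 4, 8298 to 13018 CPM (median 10425) in Middle-aged mice and 9042 to 12462 CPM (median 10015) in Mature mice. Thus the summed level of the highest Middle-aged mouse was 1.57 times that of the lowest. The groups overlapped wholly.

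The mice with a high sum were those with a high share of counts from the mitochondrial genome, whose 13 genes are not among the 39. The 7 highest sums (11478 to 13018 CPM) and the 7 highest shares (20.01% to 23.2%) belonged to the same mice: ALL 1, Middle-aged 1, 3 and 4, and Mature 1, 2 and 3. In the other 10 mice sums were 8298 to 10387 CPM and shares 14.97% to 18.2%. This relation was seen first and then fitted with the share as a covariate beside the groups, so its tests are of a pattern found in the same libraries.

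**Figure D3:**
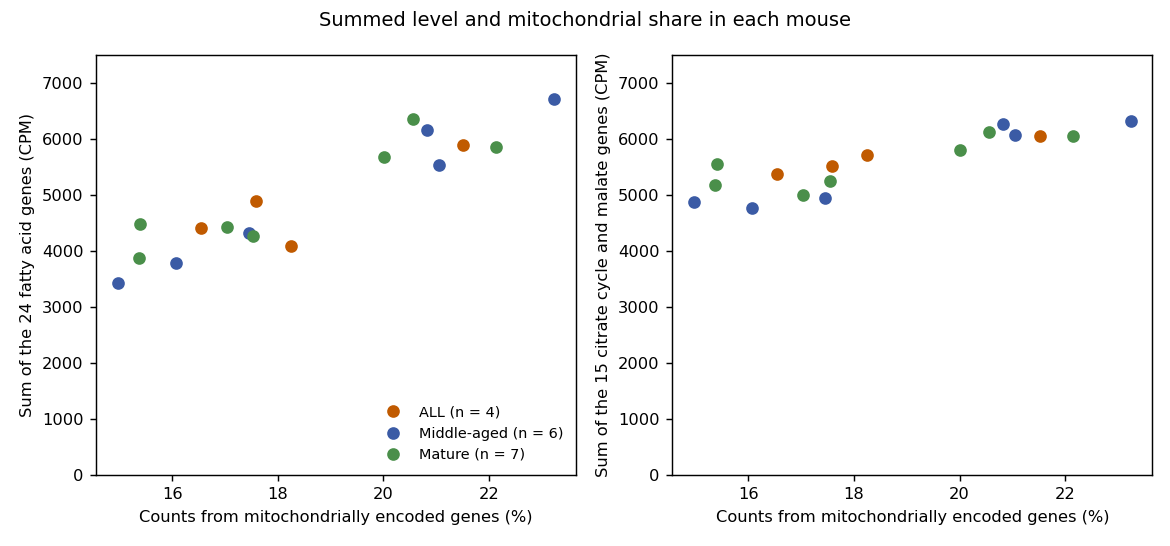
Summed level (CPM, scaled by TMM) of the 24 fatty acid genes (left) and the 15 citrate cycle and malate genes (right) against the percentage of counts from the 13 mitochondrially encoded genes, 1 point per mouse, coloured by group. Mice of every group lie along the same trend, between 14.97% and 23.2%.

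In that fit 31 of the 39 genes rose with the share and 1 fell, Me1 (edgeR, FDR under 0.05), against 3.85% of all genes rising and 1.16% falling. The median slope of the 39 genes was 0.06 log2 units per percentage point of share, against −6e-04 over all genes tested. Taken within each group alone, the slope was above 0 for 37 of the 39 genes in ALL mice (51.7% of all genes), 37 in Middle-aged mice (47.9% of all genes) and 38 in Mature mice (51.5% of all genes). Me1 was below 0 in all 3 groups, Cpt1a also in Middle-aged and Ucp3 also in ALL mice. The count of rising genes was 27 to 32 when each library was left out in turn, 26 without the 2 libraries farthest from the median share (Middle-aged 1 and Mature 2) and 29 when the mitochondrially encoded genes were removed before scaling. It was 15, with 0 falling, with a block on replicate number, against 0.418% of all genes rising in that fit.

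The slopes differed between steps of the pathways. Of the 24 fatty acid genes, 19 rose and 0 fell, with a median slope of 0.09 per percentage point, and of the 15 citrate cycle genes 12 rose and 1 fell, with a median of 0.04. These counts and medians describe the lists, and the difference between them was not tested. Fabp3 was the steepest at 0.22 ± 0.02 (adjusted p = 3.43e-05, edgeR), followed by Idh2 at 0.18 ± 0.03 and Acaa2, the mitochondrial thiolase, at 0.14 ± 0.01. All 4 acyl-CoA dehydrogenases rose, from 0.07 for Acads to 0.12 for Acadl, as did all 3 genes of the electron transfer flavoprotein and all 5 of the later spiral steps. Hadha and Hadhb, whose promoter windows overlap, had slopes of 0.09 ± 0.01 and 0.10 ± 0.01. Genes on other chromosomes had similar slopes, such as Hadh and Acadm at 0.10 and Decr1 at 0.09. The 7 genes that did not pass were Cpt1a, Mlycd, Eci2, Acot2, Ucp3, Cs and Suclg1. Among these, Cs had 0.03 ± 0.01 and Acot2 0.07 ± 0.03, with adjusted p of 0.0576 and 0.244 (edgeR).

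Me1 went the other way, with a slope of −0.04 ± 0.01 (adjusted p = 0.00779, edgeR), a call that was lost with the block on replicate number. It had 303, 332, 330.4 and 371 CPM in ALL mice 1 to 4, 283 to 391 CPM (median 321) in Middle-aged mice and 272 to 346 CPM (median 296) in Mature mice. The highest was Middle-aged mouse 6, the mouse with the lowest share and the lowest summed level of the 39 genes. Unlike most of the genes described here, Me1 encodes a cytosolic enzyme. Mdh1, which also encodes one, and the cytosolic carrier Fabp3 rose.

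**Figure D4:**
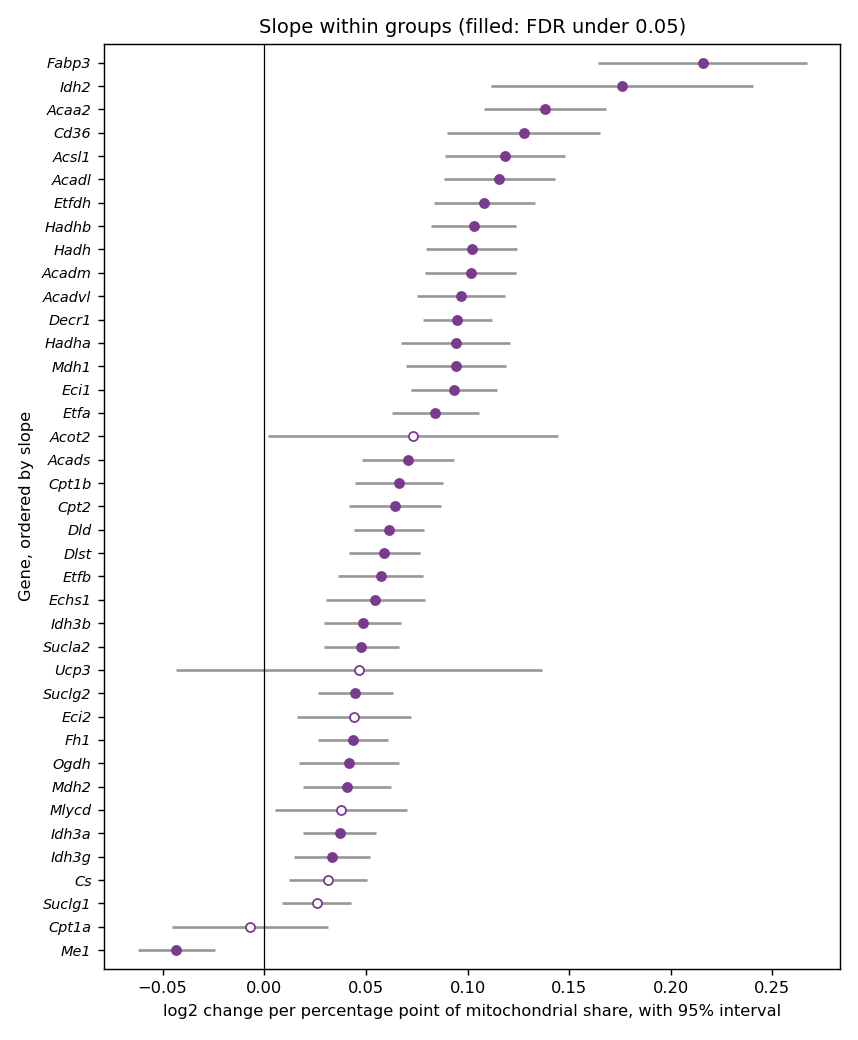
Slope on the mitochondrial share (log2 change per percentage point, beside terms for the groups) for each of the 39 genes, with 95% intervals. Filled points have an FDR under 0.05. Fabp3 (0.22) is at the top and Me1 (−0.04) at the bottom.

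Fibre markers also differed between these mice. The 12 slow and oxidative fibre markers, all above the filter, summed to 3401 to 5682 CPM in ALL, 1693 to 6650 CPM in Middle-aged mice, and 1877 to 6375 CPM in Mature mice, and the 12 fast glycolytic markers to 128903 to 162403 CPM in ALL, 121635 to 159614 CPM in Middle-aged mice, and 129826 to 162376 CPM in Mature mice. For Middle-aged against Mature, 11 of the slow markers had a logFC below 0 and 1 above, with a median of −0.70. Of these markers 0 passed the test. The mean slow marker sum was yet 4506 CPM in Middle-aged and 4317 CPM in Mature mice, so the sum does not follow most of its markers there. Of the slow markers 2 of 12 rose with the share and 0 fell, against 3.85% of all genes rising. Their slopes were above 0 for 10 and below 0 for 2, with a median of 0.06 log2 units per percentage point. Of the fast markers 1 rose and 3 fell, against 1.16% of all genes falling. Slopes of the fast markers were below 0 for 11 and above 0 for 1, with a median of −0.04. The 7 highest slow marker sums included 5 of the 7 mice with the highest summed level of the 39 genes. Mature mouse 5 was an exception, with the third highest slow marker sum, 6375 CPM, but a share of 15.4% and a summed level of 10015 CPM. The part of fibre composition in these slopes was not tested.

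With the share as a covariate the SE of Cd36 for age was 0.10, in place of 0.20 without it. Lower in Middle-aged than in Mature mice were then 4 of the 39 genes, against 6.31% of all genes: Acot2 (−0.76 ± 0.20), Cd36 (−0.39 ± 0.10), Eci2 (−0.30 ± 0.08) and Acsl1 (−0.28 ± 0.08), with adjusted p of 0.0181, 0.0209, 0.0179 and 0.0303 (edgeR). For ALL against Mature there were 2, against 3.99% of all genes, namely Acot2 (−0.81 ± 0.23) and Cd36 (−0.44 ± 0.12). For ALL against Middle-aged 0 of the 39 passed in this fit too, with Cpt1a and Eci1 at unadjusted p of 0.0445 and 0.0251 (edgeR).

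**Figure D5:**
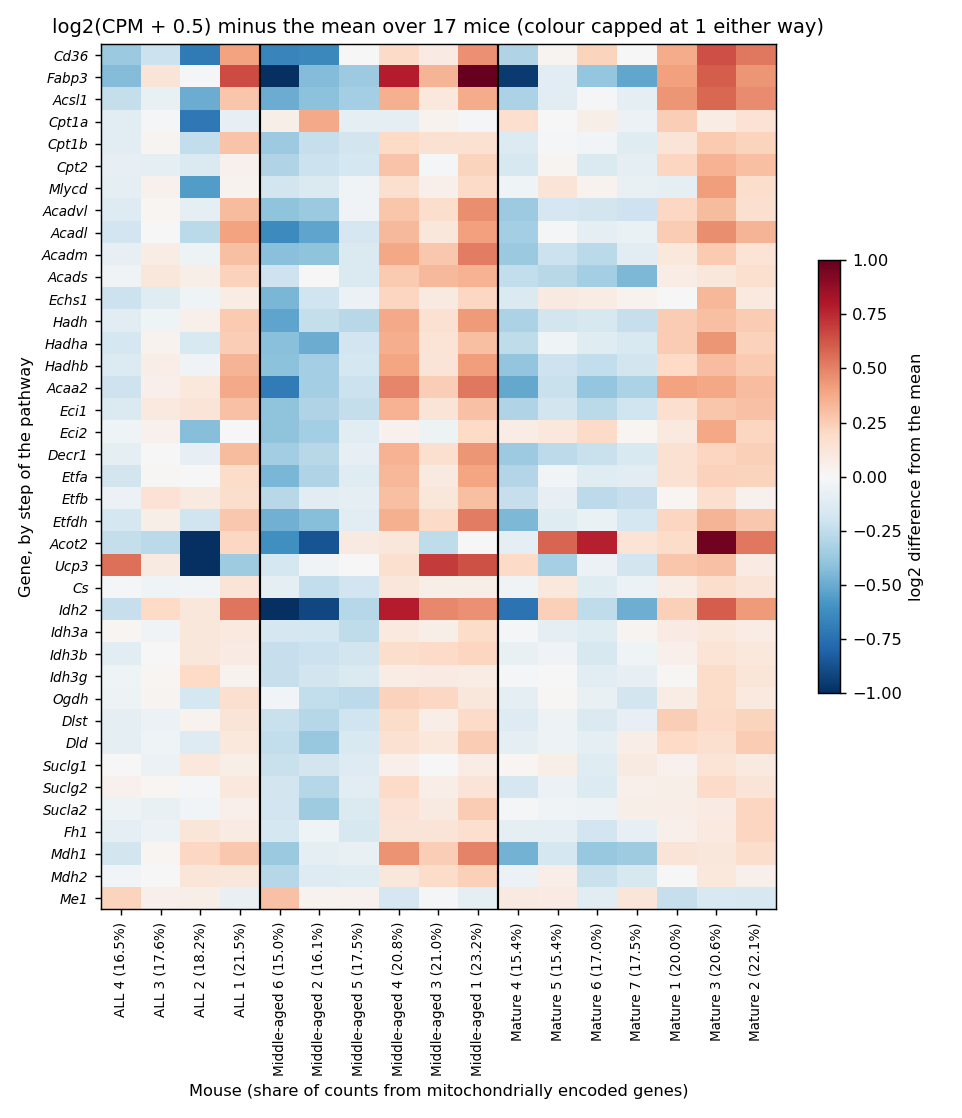
Level of each of the 39 genes in each mouse, as log2(CPM + 0.5) minus the mean over the 17 mice, with colour capped at 1 in either direction. Mice are grouped as ALL, Middle-aged and Mature and ordered within a group by mitochondrial share (in brackets). Most rows turn from blue to red toward the mice with shares over 20% in each group, and Me1 in the bottom row does not.

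Other genes of the same pathways were called at a share near that of all genes for Middle-aged against Mature, 7 of 79 against 10.3%. Of 30 further fatty acid oxidation genes, all tested, 1 was higher in Middle-aged than in Mature mice, the acyl-CoA synthetase Acsl6 (0.23 ± 0.07), and 1 was lower, Acot1. Of 24 tested genes of citrate, pyruvate and related metabolism, 1 was higher, the pyruvate dehydrogenase phosphatase Pdp1 (0.60 ± 0.18), and 2 were lower, the cytosolic aconitase Aco1 (−0.26 ± 0.05) and the cytosolic isocitrate dehydrogenase Idh1 (−0.42 ± 0.10). Both of these cytosolic enzymes were lower in Middle-aged mice, while the mitochondrial Idh2 and Idh3 genes had logFC of −0.07 to 0.01. Of 25 regulators and lipid droplet genes 1 was higher, the coactivator Ppargc1b (0.58 ± 0.13), and 1 was lower, the phosphatidate phosphatase Lpin1 (−0.50 ± 0.16). For ALL against Mature, Acsl6 was higher (0.27 ± 0.08) and Idh1 (−0.65 ± 0.11) and Angptl4, an inhibitor of lipoprotein lipase (−1.12 ± 0.31), were lower, and 0 of these 79 tested genes passed for ALL against Middle-aged. With the share, 8 of the 30, 14 of the 24 and 9 of the 25 rose and 0 fell, beside 31 of the 39.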

How the data were processed

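Counts per gene were deposited by the authors as whole numbers, not normalized, together with TPM values that the authors scaled for gene length and depth. The paper names STAR and StringTie, and the submitters' processing notes name HISAT2 2.1.0, featureCounts, Trimmomatic 0.38 and FastQC 0.11.7 with build mm10, and which of these made the counts is not settled. A further 18 columns of mice outside the 3 groups and 17 FPKM columns were not used.

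Counts were tested in R 4.3.3 with edgeR 4.0.16 (filterByExpr, TMM, quasi-likelihood F test, 1 fit over 17 mice, two-sided, Benjamini-Hochberg adjustment over 16731 genes, FDR under 0.05; common dispersion 0.0332). Intervals are 95%. DESeq2 1.42.0, other scalings, no filter, the likelihood ratio test, fits of 2 groups, a block on replicate number, the mitochondrial share as a covariate, removal of mitochondrial genes and each library left out were alternatives. The slopes on the share and their alternatives were chosen after seeing the data. The scripts were tested on simulated counts. Sequences were compared with GENCODE M21, using Biopython 1.88 for alignment.

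The 39 genes and all lists were chosen with earlier results of these data known. From the list of further fatty acid oxidation genes, 1 gene is not reported here. Values per mouse are given for genes past the threshold, for those of smallest unadjusted p up to 10 genes, and for the gene of highest mean CPM in each of 11 steps, 20 genes in all. Idh2, Me1 and Acaa2 were added after their values were seen. Libraries held 49774656 to 72640511 counts, and the median SE of a logFC over all genes was 0.121 with age (Middle-aged against Mature) and 0.14 with allulose (ALL against Middle-aged). Replicates are individual mice.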

Additional observations from a re-analysis of the deposited data

Results flagged for a closer look

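Of 117 sets of values (39 genes in 3 groups), 3 held a mouse far from the rest of its group by Dixon's test, where chance alone flags about 1 in 20. Cpt1a was low in ALL mouse 2 at 7.12 CPM, against 11.1 to 11.9 CPM in the other ALL mice. Cpt1a was high in Middle-aged mouse 2 at 15.7 CPM, against 11.1 to 12.5 CPM in the other Middle-aged mice. Cs was high in ALL mouse 1 at 814 CPM, against 723 to 735 CPM in the other ALL mice, and that mouse also had the highest mitochondrial share of its group, 21.5%.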

How the results depend on the processing

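For Middle-aged against Mature, the count of 1 gene called, and called lower, was 0 without a filter on low counts, 4 with the mitochondrial share as covariate, and 0 to 1 with each library left out. For ALL against Mature the count of 0 was 1 with DESeq2 (Acot2), 1 with the likelihood ratio test, 2 with the covariate and 0 to 1 with each library left out (1 without Mature replicate 4 or ALL replicate 1). For ALL against Middle-aged it was 0 in all 25 alternatives. In ALL against Mature 2 logFC values changed sign and moved by more than 1 SE, neither past the threshold. Fabp3 was −0.27 with the replicate block. Ucp3 was 0.0891 without ALL replicate 2, within a range of −0.5622 to 0.0891 over the libraries left out. Smaller changes of sign also occurred, such as Hadhb in this comparison, at −0.0767 to 0.0844 over the alternatives other than libraries left out. Of the other values for the named genes under alternatives, 1465 kept their side of the threshold. Where the main fit made no call, these lay within 1 SE of the main logFC, some with the other sign. A further 11 lost the call, 10 gained it, and 12 kept their sign without a call but moved by more than 1 SE.

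With the replicate block 15 genes rose and 0 fell with the mitochondrial share, against 0.418% of all genes rising. Replicate numbers do not pair the mice by the labels. In the data 10 of 28 checks matched a mouse best with its own number, and the number that chance alone would give was not computed. The median correlation was 0.118 (−0.263 to 0.395) over 14 pairs of the same number and −0.0216 over 80 others. It was above 0.1 in 8 of the 14 pairs and 18 of the 80. The cause of the changes with the block was not tested. With 4 ALL mice the 95% interval for ALL against Middle-aged reached beyond 0.5 log2 units for 8 of the 39 genes.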
